A study of Bos taurus with 36 samples.

Results

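The urea cycle and gluconeogenesis genes considered here are 10 genes of the deposited bovine count table whose Entrez identifiers carry the RefSeq symbols CPS1, OTC, ASS1, ASL, ARG1 and NAGS (urea cycle) and PCK1, PCK2, FBP1 and PC (gluconeogenesis). They are 10 of 35092 genes in the table. RNA was counted in 3 organs (heart, gonads and liver) of 10 male fetuses, all at gestational Day 42, and in blood of the pregnant heifers. Fetal numbers follow body weight, which was 1.253 g in fetus 1 and 1.69 g in fetus 10. Fetuses 1 to 5 belong to the ET_D7 group, in which a Day 7 embryo was placed in a heifer on Day 7 of her cycle (synchronous transfer), and fetuses 6 to 10 belong to the ET_D9 group, in which the embryo was placed on Day 9 (asynchronous transfer). All of the ET_D9 fetuses were heavier than all of the ET_D7 fetuses, so that fetal weight and transfer group cannot be told apart by order. There were 9 heart, 9 gonad, 8 liver and 10 maternal blood libraries.

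The urea cycle turns ammonia from amino acids into urea, and all of its steps run in adult hepatocytes, the first ones in the mitochondrion and the later ones in the cytosol. NAGS makes the activator of CPS1, CPS1 joins ammonia and bicarbonate, OTC makes citrulline, ASS1 and ASL convert citrulline to arginine, and ARG1 splits arginine into urea and ornithine. Gluconeogenesis makes glucose from lactate, amino acids, glycerol and, in ruminants above all, propionate. PC makes oxaloacetate from pyruvate, the cytosolic PCK1 and the mitochondrial PCK2 make phosphoenolpyruvate from it, and FBP1 removes a phosphate near the end of the route. ASS1 is also found outside the liver, where it recycles citrulline to arginine, and ARG1 and FBP1 are also found in blood leukocytes.

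Libraries held 18231089 to 40812354 counts. The liver libraries of fetuses 1 and 2 differed by less than the sampling noise: the median chi-square per gene was 0.262 of that expected from counting error over 16065 genes, against 7.45 or more for every other liver pair. Still, 876 of these genes (5.45%) differed between both at p under 0.001. The libraries were counted as 1 sample, the mean of both, with a mean fetal weight of 1.273 g, so that the liver has 7 samples (4 ET_D7 and 3 ET_D9). None of the 9 enzyme genes with counts differed between both libraries at p under 0.05 (chi-square test, p = 0.21 to 0.975). The summed level of 10 hepatocyte markers was 37137 to 64123 CPM in the liver, 29.9 to 63.6 CPM in the heart and 7.33 to 21.3 CPM in the gonads, where CPM stands for counts-per-million values after edgeR's TMM correction of the library totals. In the liver libraries 10 erythroid markers summed to 4349 to 6645 CPM, and 10 cardiomyocyte markers to 33.8 to 2059 CPM, the highest sum in fetus 3. In the libraries labelled gonads, PAX2 and PAX8, which mark the mesonephros (an embryonic kidney that adjoins the gonad), reached 115 ± 11.8 and 82.2 ± 9.65 CPM (SD, n = 9), while the Sertoli marker SOX9 reached 3.14 ± 1.90 CPM (SD, n = 9). PAX2 and PAX8 belong to a list of 12 mesonephros and proximal tubule genes, of which 3 peaked in the gonads (adjusted p-value under 0.05 against both heart and liver) and 4 in the liver (against both heart and gonads). The list summed to 244 to 271 CPM in the gonads and to 202 to 374 CPM in the liver, where CDH16 alone measured 156 ± 53.3 CPM (SD, n = 7). SOX9 belongs to a list of 9 Sertoli markers, of which 1 peaked in the gonads, 2 in the heart and 2 in the liver. That list summed to 14.8 to 25 CPM in the gonads, 18 to 32.9 CPM in the heart and 32.7 to 72.1 CPM in the liver. In these bulk samples, fewer cells of a type and less RNA per cell cannot be told apart.

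Of the 10 genes, 9 held at least 1 CPM in every liver sample and 7 held at least 10 CPM. In the same terms, 5 genes reached 1 CPM in every heart library, 3 in every gonad library and 5 in every blood library. The share of all genes past these levels was not counted, so these numbers describe the members only. In the fit over all organ libraries (edgeR's quasi-likelihood test, 25095 genes with a count), 8 of the 9 tested members were higher in the liver than in each other organ at a Benjamini-Hochberg adjusted p-value under 0.05, and the same call was made for 23.0% of all genes. None was lower in the liver than in the heart or gonads, against 37.9% of all genes, and all fitted differences of the 9 were above 0. For 7 of the 9, every liver sample lay above every heart and gonad library, as was the case for 9.81% of all genes. The exceptions were ASS1 and PCK1.

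**Figure D1:**
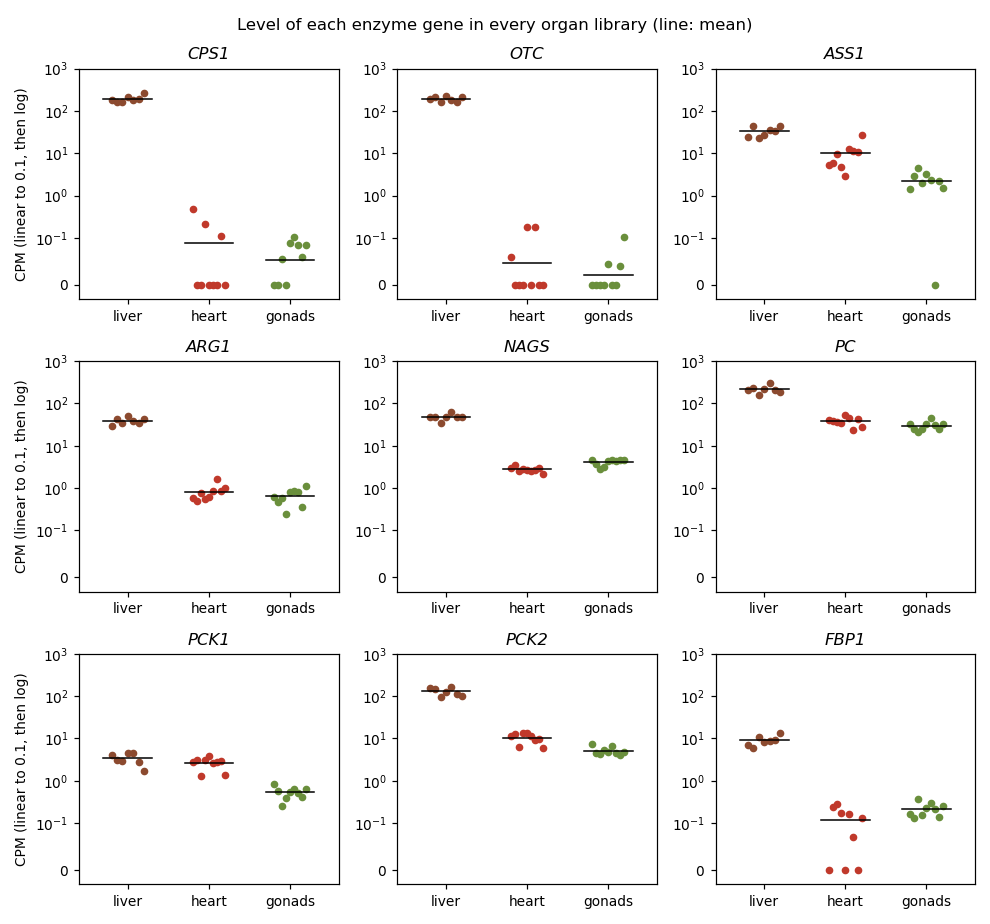
Level of each enzyme gene in every library of the liver (n = 7), heart (n = 9) and gonads (n = 9), in CPM on an axis that is linear up to 0.1 and logarithmic above. Each point is 1 library and the line is the mean. CPS1 and OTC are near 0 outside the liver, whereas the PCK1 values of the liver and heart overlap.

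CPS1 and OTC, both mitochondrial enzymes of the urea cycle, showed the widest gap between organs. CPS1 (Entrez 510506) ranged from 166 to 267 CPM in the liver with a median of 182, and no heart library exceeded 0.478 CPM and no gonad library 0.102 CPM. It had 0 counts in 6 of 9 heart libraries and in 3 of 9 gonad libraries, and the highest count outside the liver was 8. The log2 fold change over the heart was 11.30 (standard error 0.484, adjusted p = 3.55e-17 in edgeR's test) and reached 11.74 when set against the gonads (standard error 0.470, adjusted p = 6.68e-18, edgeR). With so few counts outside the liver, the size of these fitted changes is imprecise.

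OTC (Entrez 280887) ranged from 164 to 219 CPM in the liver with a median of 191. It had 0 counts in 6 of 9 heart libraries and in 6 of 9 gonad libraries, and reached at most 0.183 CPM in the heart and 0.102 CPM in the gonads. Its log2 fold change was 12.00 over the heart (standard error 0.447, adjusted p = 2.11e-18, edgeR) and 12.91 over the gonads (standard error 0.446, adjusted p = 3.24e-19, edgeR). Among the 9 genes, OTC also had the smallest relative spread between liver samples, with a coefficient of variation of 12.9%, against 18.5% for CPS1 and 30.2% for PCK1.

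NAGS (Entrez 538004) ranged from 34.5 to 61.7 CPM in the liver with a median of 47.6. Unlike CPS1 and OTC, it was detected in all of the other organ libraries, between 2.17 and 3.51 CPM in the heart and between 2.85 and 4.74 CPM in the gonads. These ranges did not overlap with that of the liver. The log2 fold change was 4.11 over the heart (standard error 0.147, adjusted p = 9.65e-19, edgeR) and 3.54 over the gonads (standard error 0.142, adjusted p = 7.42e-18, edgeR).

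The cytosolic genes were less uniform. ARG1 (Entrez 513608) ranged from 30.1 to 50.0 CPM in the liver with a median of 39.1, from 0.484 to 1.65 CPM in the heart and from 0.250 to 1.11 CPM in the gonads. The liver stood clear of both organs, with log2 fold changes of 5.55 (standard error 0.289, adjusted p = 2.21e-15, edgeR) and 5.90 (standard error 0.291, adjusted p = 5.82e-16, edgeR).

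ASS1 (Entrez 280726) ranged from 22.4 to 44.7 CPM in the liver with a median of 33.5, and from 2.86 to 26.8 CPM in the heart with a median of 9.67. The heart of fetus 10, at 26.8 CPM, lay within the liver range, and the other hearts did not exceed 12.3 CPM. The log2 fold change of the liver over the heart was 1.71 (standard error 0.489, adjusted p = 0.00399, edgeR), the smallest among the urea cycle genes tested. In the gonads ASS1 ranged from 0 to 4.43 CPM with a median of 2.24, and the liver was higher by 3.88 on the log2 scale (standard error 0.524, adjusted p = 3.14e-07, edgeR). The gonad library of fetus 8 held 0 counts of ASS1, while the other gonad libraries held 1.41 CPM or more.

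ASL (Entrez 512771), the lyase that follows ASS1, was listed at 0 in all 36 libraries. So were TPI1, a glycolytic enzyme gene that cells in general use, and GPD1, so the listed 0 gives no level for ASL in any tissue.

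In the gluconeogenic route, PC (Entrez 338471) ranged from 163 to 307 CPM in the liver with a median of 211. It was also detected in every heart library, at 23.1 to 53.3 CPM, and in every gonad library, at 21.1 to 46.1 CPM. The liver range lay above both. The log2 fold change was 2.51 over the heart (standard error 0.169, adjusted p = 5.05e-13, edgeR) and 2.86 over the gonads (standard error 0.171, adjusted p = 3.6e-14, edgeR).

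PCK2 (Entrez 282856), the mitochondrial carboxykinase, ranged from 94.9 to 165 CPM in the liver with a median of 127, from 5.93 to 13.7 CPM in the heart and from 4.16 to 7.40 CPM in the gonads. Every liver sample was higher than every other organ library. The log2 fold change was 3.65 over the heart (standard error 0.179, adjusted p = 6.24e-16, edgeR) and 4.66 over the gonads (standard error 0.187, adjusted p = 6.68e-18, edgeR).

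PCK1 (Entrez 282855), the cytosolic carboxykinase and in the adult liver a gene that responds to glucagon and insulin, behaved differently. It ranged from 1.71 to 4.54 CPM in the liver with a median of 3.14 and from 1.32 to 3.89 CPM in the heart with a median of 2.84, and both ranges overlapped. The log2 difference between liver and heart was 0.34 (standard error 0.286, adjusted p = 0.316, edgeR), and the adjusted p-value stayed between 0.0739 and 0.415 over all the settings tried. The gonads ranged from 0.254 to 0.843 CPM, below every liver sample, and the liver was higher by 2.65 on the log2 scale (standard error 0.296, adjusted p = 1.06e-08, edgeR).

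The number of reads on PCK2 for each read on PCK1 was compared between organs within libraries, since this ratio does not depend on how libraries are scaled. It ranged from 28.7 to 60.3 in the liver with a median of 39.1, from 3.17 to 4.83 in the heart with a median of 4.08 and from 7.41 to 17.0 in the gonads with a median of 9.04. The ranges of these organs did not overlap. In maternal blood, sequenced with another library kit, the ratio ranged from 14.8 to 127 with a median of 51.6 (n = 9), which overlapped the liver range. The mean log2 ratio was higher in the liver than in the heart by 3.33 (exact permutation test, two-sided, p = 0.000175, adjusted p = 0.000175 over 3 comparisons, n = 7 and 9) and higher than in the gonads by 1.99 (exact permutation test, two-sided, p = 0.000175, adjusted p = 0.000175, n = 7 and 9), in both cases the smallest p-value the design allows. The ratio restates the fitted differences of PCK2 and PCK1 between organs given above, so this test adds no separate support. The test was not among the planned ones, and it treats organs of the same fetus as independent. Transcript lengths differ between both genes, so the ratio compares organs and does not give the relative abundance of the transcripts.

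FBP1 (Entrez 513483) ranged from 5.93 to 13.3 CPM in the liver with a median of 8.83. In the heart it had 0 counts in 3 of 9 libraries and at most 0.281 CPM, and in the gonads it ranged from 0.134 to 0.363 CPM. The log2 fold change was 6.14 over the heart (standard error 0.502, adjusted p = 2.95e-11, edgeR) and 5.34 over the gonads (standard error 0.470, adjusted p = 1.11e-10, edgeR). The plot of fold changes sets the 9 genes side by side.

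**Figure D2:**
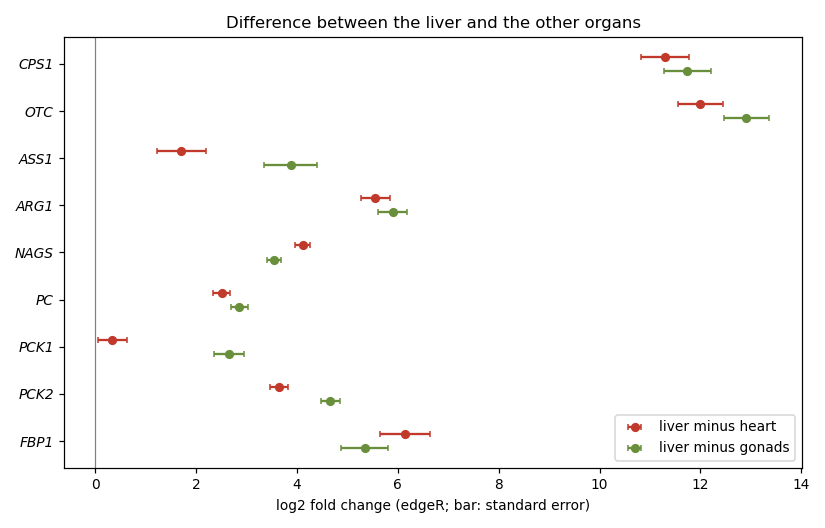
Log2 fold change of the liver over the heart (red) and over the gonads (green) for 9 enzyme genes, with the standard error as a bar (edgeR's quasi-likelihood fit over all organ libraries). The values lie between 0.34 for PCK1 over the heart and 12.91 for OTC over the gonads.

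Between the gonads and the heart, 4 of the 9 members differed at an adjusted p-value under 0.05, against 47.0% of all genes. NAGS was higher in the gonads by 0.57 on the log2 scale (standard error 0.129, adjusted p = 0.000599, edgeR). The other three were higher in the heart, namely ASS1 by 4.48-fold (adjusted p = 0.000451, edgeR), PCK1 by 4.97-fold (adjusted p = 1.04e-07, edgeR) and PCK2 by 2.01-fold (adjusted p = 8.11e-06, edgeR). The direction for PCK2 depends on the scaling: as CPM of the plain library total, its mean was 8.26 CPM in the gonads and 7.64 CPM in the heart, where 17.1% to 57.3% of the counts fell on mitochondrially encoded genes (3.31% to 7.23% in the gonads). PC did not pass in this fit (log2 difference of −0.35, adjusted p = 0.0673, edgeR) but did with the fetus as replicate block, at −0.45, and its direction also turned with the plain library total (47.9 CPM in the gonads and 28.9 CPM in the heart). NAGS, ASS1 and PCK1 kept their direction under each scaling.

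The other genes of both pathways were taken from 4 lists. In the fit over all organ libraries, 23.0% of all genes received the call of a liver level above each other organ. The call of a liver level below that of the heart or gonads was made for 37.9%. Whether the counts of the lists depart from these shares was not tested. Of 12 genes for transport and ammonia handling around the urea cycle, 6 had higher levels in the liver than in both organs, 5 were lower than in the heart or gonads, and the median of the smaller log2 fold change was 0.42. GLUD1, glutamate dehydrogenase, which releases ammonia from glutamate, was higher in the liver by 2.77 over the heart (standard error 0.279, adjusted p = 1.81e-09, edgeR) and by 2.29 over the gonads on the log2 scale. GLS2, the liver-type glutaminase, was higher by 3.85 and 1.78. SLC25A15, the mitochondrial ornithine carrier, measured 83.9 ± 14.2 CPM (SD, n = 7) in the liver against 25.7 ± 2.59 CPM (SD, n = 9) in the heart and 18.9 ± 2.58 CPM (SD, n = 9) in the gonads. The aspartate carriers went in opposite directions, with SLC25A13 higher in the liver than in both organs (log2 fold changes of 1.56 and 1.61) and SLC25A12 lower (−3.45 and −2.83).

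Of 17 genes for the other gluconeogenic steps, 16 were tested, 4 had higher levels in the liver than in both organs and 11 were lower than in the heart or gonads, and the smaller log2 fold change had a median of −1.23. The higher genes included G6PC1, G6PC3 and FBP2. For FBP2, 2 of 8 liver libraries held 0 counts. Its liver range of 0 to 7.39 CPM overlapped the heart range of 0.533 to 1.1 CPM. The 11 lower genes were all lower than in the heart, and most of them also serve glycolysis or the citrate cycle, with ALDOA at −3.55 and MDH1 at −3.33 as the lowest. G6PC1, the liver-type glucose-6-phosphatase that releases free glucose, was called at a low level: 5 of 8 liver libraries held 0 counts, and the highest count was 26, in the liver of fetus 4. Over all liver libraries it had 46 counts, against 3 in the heart (ratio of CPM 23.0, 95% exact interval 7.40 to 116, counting error only) and 4 in the gonads. Without the liver of fetus 4, 20 counts remained and the ratio to the heart was 11.1 (95% exact interval 3.30 to 58.5). G6PC3, which is expressed in most tissues, measured 219 ± 61.5 CPM (SD, n = 7) in the liver against 74.9 ± 24.6 CPM (SD, n = 9) in the heart and 34.8 ± 7.61 CPM (SD, n = 9) in the gonads.

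Of 16 genes for gluconeogenic precursors, 15 were tested, 9 had higher levels in the liver than in both organs and 6 were lower than in the heart or gonads (median smaller log2 fold change 1.59). HPD, of tyrosine breakdown, and AGXT, the alanine-glyoxylate aminotransferase, were the highest, with smaller log2 fold changes of 10.18 and 9.95. The alanine aminotransferases went in opposite directions: GPT had 58.8 ± 11.2 CPM in the liver (SD, n = 7) and was higher by 1.59 and 1.64, whereas GPT2 had 1.82 ± 0.811 CPM (SD, n = 7) and was lower (−2.27 and −3.54 on the log2 scale). For propionate, PCCA was higher in the liver by 0.58 and 0.54 on the log2 scale, PCCB was lower than in the heart (−0.41, adjusted p = 0.0332, edgeR) and MMUT was lower than in both organs (−0.63 and −1.72). LDHB, a lactate dehydrogenase subunit, was lower (−3.48 and −2.14).

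Of 15 regulators, 10 had higher levels in the liver than in both organs and 3 were lower than in the heart or gonads (median smaller log2 fold change 1.79). CREB3L3 had 16.4 ± 3.21 CPM in the liver (SD, n = 7) and 0 counts in all 9 heart libraries, at least 1144-fold higher with a floor of 3 counts over the TMM-corrected totals of the heart libraries. HNF4A, a hepatocyte nuclear factor, was higher by 9.09 and 6.36 on the log2 scale, and GCGR, the glucagon receptor, by 7.33 and 5.07. PPARGC1A, a coactivator of gluconeogenic genes that also drives mitochondrial genes in muscle, was lower in the liver than in the heart (−3.13) and higher than in the gonads (2.13). NR3C1, the glucocorticoid receptor, was lower than in both (−1.91 and −2.99). The plot of the 4 lists sets their genes side by side.

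**Figure D3:**
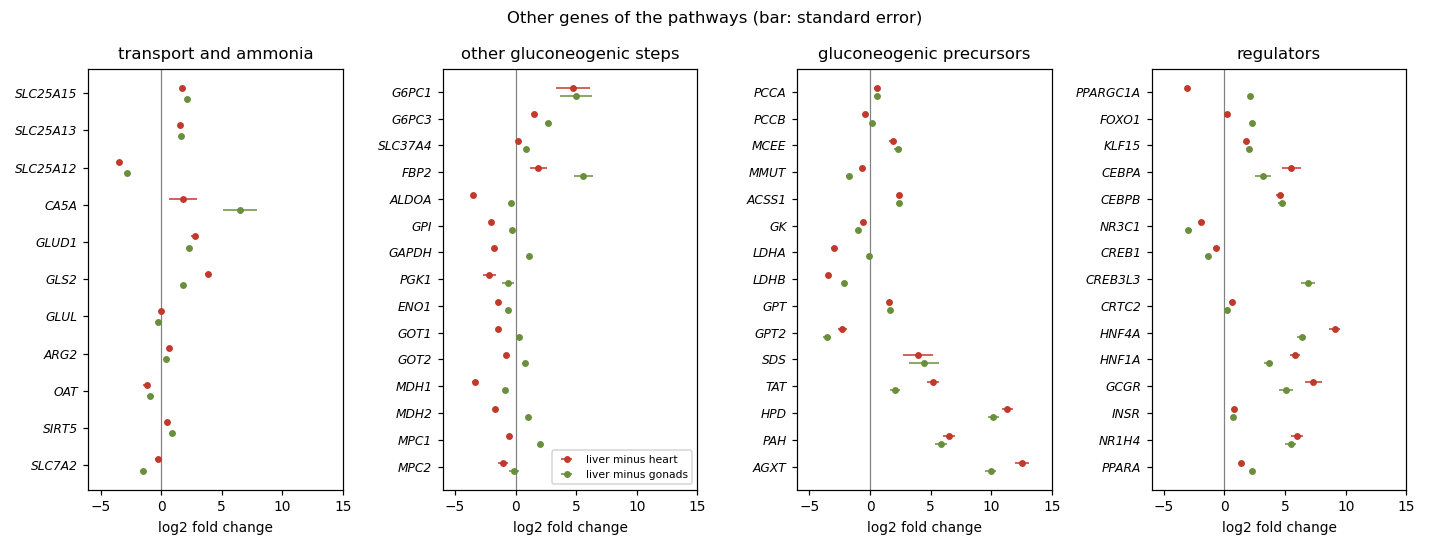
Log2 fold change of the liver over the heart (red) and the gonads (green) for other genes of the pathways that held counts, with the standard error as a bar (edgeR). The fold of CREB3L3 over the heart is left out because no heart library held a count, and TPI1 and GPD1 are left out because they were listed at 0. The genes for the other gluconeogenic steps lie mostly left of 0 in red, with ALDOA the lowest at −3.55.

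Over the 25 organ libraries, the genes most like CPS1 by Pearson's r of log2(CPM + 1), among 16090 genes with a mean of at least 1 CPM, were FABP1 (r = 0.999), OTC (r = 0.999) and LOC525415 (r = 0.998). All of them were near 0 outside the liver, as FABP1, a fatty acid binding protein gene, measured 711 ± 223 CPM (SD, n = 7) in the liver against 0.0325 ± 0.0757 CPM (SD, n = 9) in the heart and 0.0358 ± 0.0611 CPM (SD, n = 9) in the gonads. For PCK1 they were DKKL1 (r = 0.977), ADGRE5 (r = 0.966) and ENG (r = 0.964). These genes shared the pattern of similar levels in liver and heart and lower levels in the gonads: DKKL1 measured 60.8 ± 12.6 CPM (SD, n = 7) in the liver against 40.5 ± 12.0 CPM (SD, n = 9) in the heart and 11.1 ± 2.0 CPM (SD, n = 9) in the gonads. The libraries of an organ share their composition, so these values mostly describe the 3 organs.

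Next, the trend with fetal weight was examined in the liver, with the weight as a linear term (change per 0.1 g) or as a spline with 3 degrees of freedom. None of the 9 members passed an adjusted p-value under 0.05 in the linear fit, against 1.59% of the 16211 genes tested, and none in the spline fit, against 1.71% (edgeR's quasi-likelihood test). At an unadjusted p-value under 0.05 there was also none in either fit, against 12.8% and 10.6% of all genes, and DESeq2 called none in either.

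The slopes lay between −0.17 and 0.12 on the log2 scale per 0.1 g, beside a median of −0.012 over all genes. FBP1 had the highest slope, 0.12 (standard error 0.0982, adjusted p = 0.671, edgeR): its levels in order of weight were 6.80 (fetuses 1 and 2), 5.93, 10.8, 8.14, 8.83, 9.18 and 13.3 CPM. The lightest samples were at the low end and fetus 10 was the highest, but the values between them did not follow the weight. PCK1 had the lowest slope, −0.17 (standard error 0.134, adjusted p = 0.666, edgeR), with 4.0 (fetuses 1 and 2), 3.14, 2.91, 4.43, 4.54, 2.82 and 1.71 CPM in the same order. Here the heaviest fetus was the lowest, and without fetuses 9 and 10 the slope became 0.057.

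The slope of CPS1 was 0.06 (standard error 0.0601, adjusted p = 0.726, edgeR), with 177 CPM in fetuses 1 and 2 and 267 CPM in fetus 10. The slope of ASS1 was 0.10 (standard error 0.0831, adjusted p = 0.680, edgeR). The liver of fetus 3, which held 43.4 CPM of ASS1 and also the most cardiomyocyte RNA, departed most from this trend: without it the slope was 0.18 with an unadjusted p = 0.00889 and an adjusted p = 0.268 (edgeR). The part of the cardiomyocyte RNA in this value was not tested. The remaining slopes were 0.03 for NAGS, −0.01 for PC, −0.02 for ARG1, −0.04 for OTC and −0.09 for PCK2, with adjusted p-values of 0.642 to 0.970 (edgeR).

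**Figure D4:**
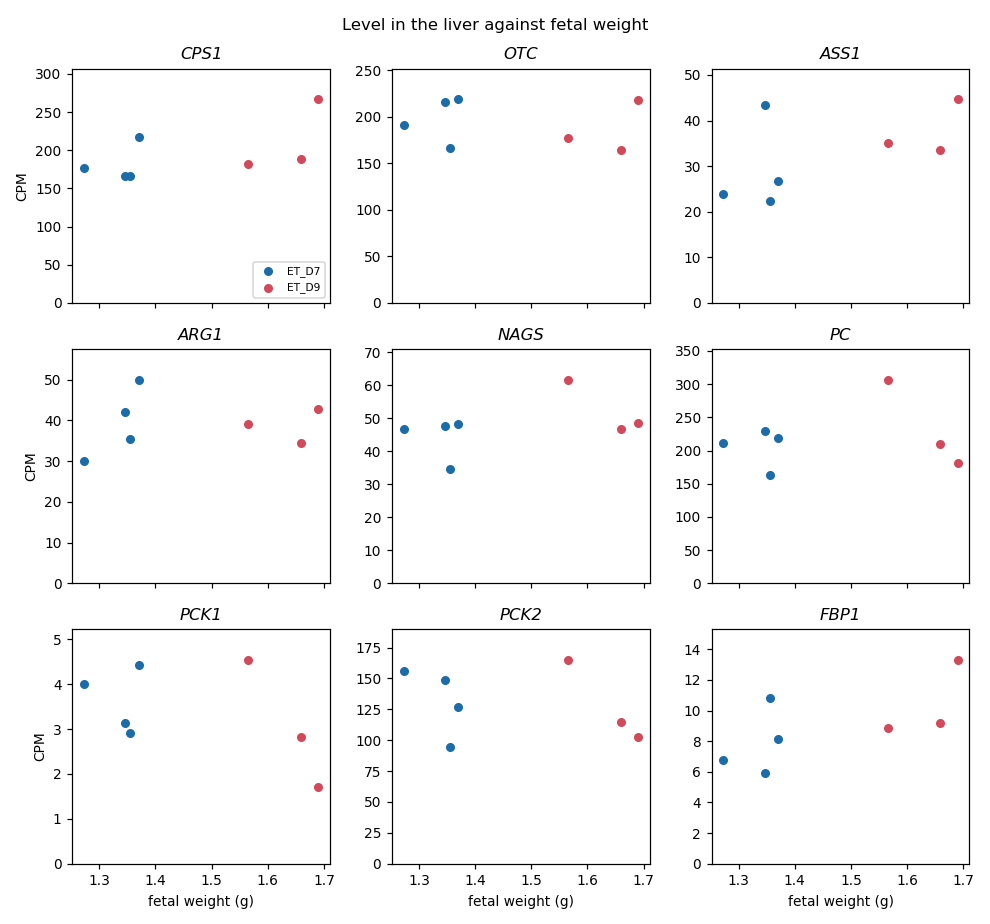
Level in the liver in CPM against fetal weight in g for 9 enzyme genes, each axis starting at 0 CPM. Each point is 1 liver (blue ET_D7, red ET_D9), and the point at 1.273 g stands for fetuses 1 and 2 together. The levels of the ET_D7 and ET_D9 livers overlap for each of the 9 genes.

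The transfer groups divide the livers into lighter and heavier fetuses, and no member was called as different between these few livers. None of the 9 members passed an adjusted p-value under 0.05 between ET_D9 and ET_D7, against 2.20% of all genes, and none passed at an unadjusted p-value under 0.05, against 13.4% (edgeR), nor did DESeq2 call any. The log2 differences lay between −0.39 for PCK1 (standard error 0.417) and 0.27 for FBP1 (standard error 0.320). No member had all of its ET_D9 livers above or below all of its ET_D7 livers, which was the case for 8.77% (above) and 6.02% (below) of all genes. The number of all genes called ranged from 0 to 262 in the linear fit when 1 liver was left out at a time.

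In the heart, 6 members had enough counts to be tested and none passed the adjusted threshold on fetal weight, against 6.77% of all genes (edgeR's quasi-likelihood test). At an unadjusted p-value under 0.05 there was 1 member, ASS1, against 29.1% of all genes. Its slope was 0.43 per 0.1 g on the log2 scale (standard error 0.119, unadjusted p = 0.00435, adjusted p = 0.0543, edgeR). In order of weight, the ET_D7 hearts held 5.20, 5.99, 9.67, 4.68 and 2.86 CPM and the ET_D9 hearts of fetuses 6, 8, 9 and 10 held 12.3, 11.5, 10.8 and 26.8 CPM. Every ET_D9 heart was higher than every ET_D7 heart, which held for 6.36% of all genes, while there was no order of weight within either group. The log2 difference between the transfer groups was 1.42 (standard error 0.370, adjusted p = 0.0708, edgeR), a comparison in which 0.0492% of all genes passed.

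The ASS1 slope passed the adjusted threshold without the heart of fetus 3 (0.47, adjusted p = 0.0212, edgeR) or that of fetus 9 (0.51, adjusted p = 0.0392, edgeR), and without that of fetus 10 it was 0.28 (adjusted p = 0.456, edgeR). Without the heart of fetus 3, PCK2 passed as well, in the falling direction (slope of −0.19, adjusted p = 0.037, edgeR). The number of all genes called ranged from 0 to 3947 when 1 heart was left out at a time, against 1100 with every heart. These passes are therefore not read as particular to ASS1 or PCK2. With the transfer group as a covariate the ASS1 slope was 0.21 (standard error 0.215, adjusted p = 0.746, edgeR). The summed level of 6 endothelial markers was also higher in the ET_D9 hearts (313 to 403 CPM) than in the ET_D7 hearts (254 to 295 CPM). Of these 6 genes, 2 passed the adjusted threshold on fetal weight in the heart, PECAM1 (slope of 0.29) and CDH5 (slope of 0.21). The others did not, and 6.77% of all genes did, so these passes are likewise not read as particular to PECAM1 or CDH5. The part of endothelial RNA in the ASS1 values was not tested. The mitochondrial genome gave 23.5% to 57.3% of all counts in ET_D7 hearts and 17.1% to 39.0% in ET_D9 hearts, so that these ranges overlapped. The lowest share in each group was in the heart with the most ASS1 of that group, that of fetus 3 and that of fetus 10. With the mitochondrially encoded genes left out of the fit, an alternative chosen after seeing the data, the ASS1 slope was 0.43 (adjusted p = 0.0569, edgeR). ARG1 was also higher in every ET_D9 heart (0.847 to 1.65 CPM) than in every ET_D7 heart (0.484 to 0.759 CPM), but its log2 difference of 0.85 did not pass (standard error 0.321, adjusted p = 0.144, edgeR). Whether the slopes of ASS1 differ between heart and liver was not tested.

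**Figure D5:**
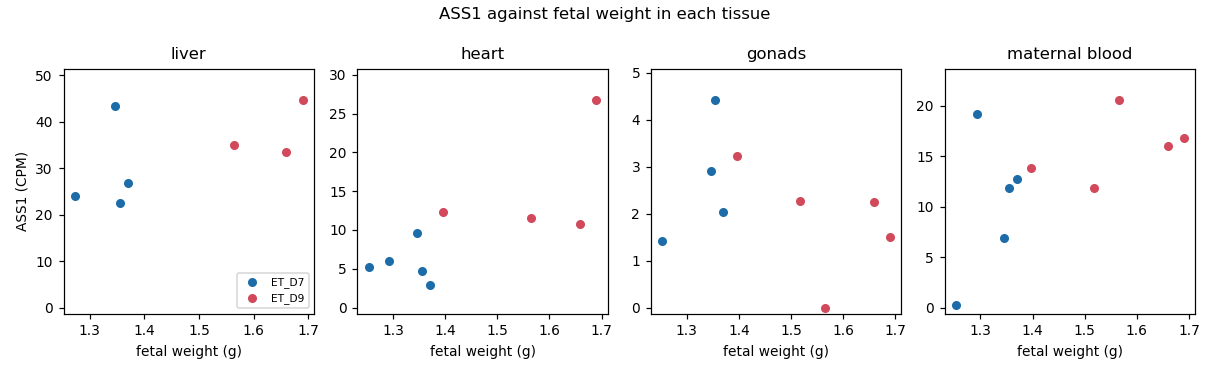
ASS1 level in CPM against fetal weight in g in the liver, heart, gonads and maternal blood, with 1 point per library (blue ET_D7, red ET_D9). In the heart the ET_D9 points lie between 10.8 and 26.8 CPM, above all ET_D7 points, whereas the groups overlap in the other tissues.

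In the libraries labelled gonads, none of the 7 members tested varied with fetal weight at the adjusted threshold, and neither did any other gene (0% of 17809; 0 members and 5.62% of all genes at an unadjusted p-value under 0.05, edgeR). The slopes lay between −0.23 for ASS1 (standard error 0.278) and 0.17 for ARG1 (standard error 0.143). NAGS had a log2 difference of 0.37 between ET_D9 and ET_D7 (standard error 0.128, unadjusted p = 0.0157, adjusted p = 0.171, edgeR), with 0.354% of all genes past the adjusted threshold.

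Maternal blood was sequenced from libraries of another kit, so its levels are described on their own. OTC had 0 counts in all 10 blood libraries, and CPS1 had 0 counts in 8 of 10 and at most 2. PCK1 ranged from 0 to 1.02 CPM with a median of 0.323. These 3 genes were thus at or near 0 in the blood.

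By contrast, FBP1 and ARG1 varied widely among heifers, and ASS1 was near 0 in the heifer of fetus 1. FBP1 ranged from 6.38 to 77.6 CPM with a median of 13.1, and the heifers of fetuses 6 and 7 stood highest at 52.3 and 77.6 CPM. ARG1 ranged from 1.08 to 41.6 CPM with a median of 7.65, highest in the heifers of fetuses 1 and 8. ASS1 ranged from 0.292 CPM in the heifer of fetus 1 to 20.6 CPM in that of fetus 8, with 6.91 CPM or more in the heifers other than that of fetus 1. Over the same libraries, 5 neutrophil markers summed to 334 to 897 CPM and 6 monocyte markers to 1632 to 3315 CPM. The heifer of fetus 7, with the highest FBP1, had the lowest sum of both lists, whereas that of fetus 6, with the next highest FBP1, had the highest neutrophil sum.

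PCK2, NAGS and PC were steadier in the blood. PCK2 ranged from 10.6 to 19.2 CPM with a median of 16.2, NAGS from 1.99 to 5.99 CPM with a median of 3.25 and PC from 3.11 to 7.53 CPM with a median of 3.83. The coefficient of variation was 19.3% for PCK2, 30% for PC and 35% for NAGS, against 46% for ASS1, 104% for FBP1 and 102% for ARG1. For PCK1, which was near 0 in the blood, it was 78.2%.

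None of the 7 members tested in the blood varied with fetal weight at the adjusted threshold, nor did any other gene (0% of 16284, edgeR). At an unadjusted p-value under 0.05 there was 1 member, PC, against 9.69% of all genes: its slope was −0.18 per 0.1 g on the log2 scale (standard error 0.0703, unadjusted p = 0.0257, adjusted p = 0.458, edgeR). It was highest in the heifer of fetus 2, at 7.53 CPM, and without that heifer the slope was −0.11. Between the transfer groups, FBP1 had a log2 difference of 1.48 (standard error 0.589, unadjusted p = 0.0276, adjusted p = 0.617, edgeR), with 6.57 to 15.3 CPM in the ET_D7 heifers and 6.38 to 77.6 CPM in the ET_D9 heifers, which overlapped.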

How the data were processed

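RNA from fetal heart, gonads and liver and from maternal blood was sequenced in 36 libraries (stranded mRNA kit for organs, another stranded kit for blood). Per the labels and the study's methods, the authors trimmed reads with Trimmomatic, mapped them with STAR (2.7.0b) to bosTau9 (ARS-UCD1.3) and counted them per gene with featureCounts (Subread 2.0.3). They deposited whole-number counts with no stated normalization. The options for strand, multi-mapping reads and read pairs are not given in the sources used here, so genes with near-identical copies or overlapping neighbours, such as PGK1 and GLUD1, are uncertain.

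Here, counts were scaled with TMM and tested with edgeR (4.0.16, quasi-likelihood, R 4.3.3), at a Benjamini-Hochberg adjusted p-value under 0.05. The organ fit took genes with a count in any organ library, and the fits on weight or transfer group within a tissue required 10 counts or more in 4 or more libraries. Both liver libraries that differed by less than sampling noise were averaged, a departure from the planned fit over 8 liver libraries, which is given as an alternative. Alternatives included DESeq2 (1.42.0), other scalings and filters, the fetus as replicate block and leaving out each library. The organs of a number come from the same fetus, as the titles give the animal. The median correlation of deviations was 0.05 within a fetus (23 pairs, −0.44 to 0.48). Between fetuses it was −0.01 (202 pairs, −0.58 to 0.52). These ranges overlap so far that the correlation cannot check the pairing. The fits were tested on simulated data. The simulated liver slopes were 0.5 log2 units per 0.1 g, steeper than those of the members in the main liver fit. Whether slopes as small as those of the members would be found was not tested.

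All 10 members are described. From the pathway lists, the genes with the largest changes in each direction were named, and the other genes named were chosen after their values were seen. The members and lists were chosen with earlier results of these data known. Symbols were matched to RefSeq names for 31630 of 35092 genes. Results for some listed genes are not reported here. Gene coordinates, transcript lengths and sequences were not used here, so levels are not compared between genes. Replicates are separate fetuses or heifers.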

Additional observations from a re-analysis of the deposited data

Results flagged for a closer look

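Of 29 combinations of a member and a tissue with a median of at least 10 counts, 4 held 1 library farther from the rest than Dixon's 95% limit, which chance alone passes in about 1 of 20 groups. In the heart, ASS1 was 26.8 CPM in fetus 10, and the nearest heart was at 12.3 CPM (n = 9). ARG1 was 1.65 CPM in the heart of fetus 8, with the nearest at 1.0 CPM (n = 9). PC was 46.1 CPM in the gonad library of fetus 7, with the nearest at 33.0 CPM (n = 9), and 7.53 CPM in the blood of the heifer of fetus 2, with the nearest at 5.22 CPM (n = 10). No liver sample was set apart for any member by this measure.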

How the results depend on the processing

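The 8 members higher in the liver than in both organs, and the absence of any lower one, held under every alternative tried: DESeq2's size factors, its Wald test, a filter of at least 10 counts in at least 4 libraries, no mitochondrially encoded genes, a log2 fold change above 1, the fetus as replicate block, and, chosen after seeing the data, the liver libraries of fetuses 1 and 2 counted separately or left out and the gonad library of fetus 1 left out. Members that differed between gonads and heart numbered 5 with the replicate block (PC was added) and 3 with a log2 fold change above 1, where all genes numbered 7496 rather than 11800, and the block changed no other call of a member. DESeq2's size factors moved the median of all genes from −0.01 to 0.15 for liver against heart and from −0.02 to 0.14 for liver against gonads on the log2 scale. No member was called in the liver on weight or transfer group under any alternative. In the heart, 0 to 2 members were called on weight when 1 library was left out: 2 without fetus 3 (ASS1 rising and PCK2 falling) and 1 without fetus 9 (ASS1). Of all genes, 0 to 3947 were called in these fits. Without mitochondrially encoded genes, chosen after seeing the data, the number of members called was 0. A threshold of 10 CPM instead of 1 CPM in every liver sample left 7 of 9 members.

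Several slopes and group differences changed sign in the liver, including the lowest slope (PCK1, −0.17) and the lowest and highest ET_D9 differences (PCK1, −0.39, and FBP1, 0.27). Without fetuses 9 and 10 they were −0.038 for CPS1, 0.0073 for ARG1, 0.057 for PCK1, 0.020 for PCK2 and 0.16 for PC, and the ET_D9 differences were −0.18 for CPS1, 0.14 for PCK1, 0.14 for PCK2 and −0.036 for FBP1. With the transfer group as a covariate the slopes were 0.27 for OTC, 0.40 for ARG1 and −0.09 for NAGS. With fetuses 1 and 2 counted separately they were 0.020 for ARG1 and 0.00046 for PC, and without mitochondrially encoded genes 0.0015 for PC. Leaving out 1 liver at a time gave slopes of −0.083 to 0.031 for ARG1 (0.0023 without fetus 3, 0.0067 without fetus 9) and −0.035 to 0.078 for PC (0.010 without fetus 3, 0.011 without fetus 5), and ET_D9 differences of −0.0096 to 0.26 for CPS1, −0.29 to 0.026 for ARG1, −0.32 to 0.021 for PCK2 and −0.12 to 0.26 for PC (−0.032 without fetus 4). The cause was not tested.

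Counts over all genes depended more on the setting. In the liver, the linear trend called 258 genes, 601 with DESeq2, 138 with genes of at least 1 count, 0 with the transfer group as a covariate and 0 to 262 with 1 liver left out. The spline called 277 genes, 1007 with DESeq2 and 0 to 599 with 1 liver left out. The transfer groups differed in 356 genes, 857 with DESeq2, 688 with fetuses 1 and 2 counted separately and 1 to 359 with 1 liver left out. In the heart the trend called 1100 genes, 0 with the covariate and 0 to 3947 with 1 heart left out, and in the blood 0 genes, 1 with the depth class as a covariate (chosen after seeing the data) and 0 to 2 with 1 heifer left out.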
